A study of Mus musculus with 8 samples.

Results

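The Trim genes encode tripartite motif proteins, and 3 of the 45 measured in these spermatogonia were called at an adjusted p under 0.05, all lower in the Tert CreER/flox group. That is 6.67% of the family, beside 5.36% of all genes. Members were chosen by name, as the rows whose symbol is Trim followed by a digit, and they made up 45 of the 14853 genes in the table. Total RNA was sequenced from undifferentiated spermatogonia, the testis cells among which the male germline stem cells lie. The first group held 4 samples of genotype Tert CreER/flox, with CreER, a Cre recombinase that tamoxifen activates, at 1 Tert allele and a loxP-flanked Tert allele opposite it. The second group held 4 samples of genotype Tert CreER/+, with the same CreER allele opposite a normal one. All samples also carried 1 Rosa lsl-Tdtomato reporter allele, came from C57BL/6 mice 8 to 12 weeks old, and were sorted on day 7 after tamoxifen as MCAM-high, KIT-negative, Tdtomato-positive cells. Both genotypes therefore received tamoxifen and carry CreER at Tert, and neither is unmodified at that gene. Whether each sample came from a separate mouse is not stated, so the p-values measure the spread between these samples.

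Tripartite motif proteins share a RING finger, 1 or 2 B-box zinc fingers and a coiled coil. The RING finger lets most of them act as E3 ubiquitin ligases, which pass ubiquitin from a conjugating enzyme to a protein and so mark it for degradation or change its activity. The domain at the other end, most often PRY-SPRY, selects the partner. The family is known for restricting viruses and tuning innate immune signals, and individual members act in transcriptional repression, centrosome control and germ cells. The family name does not make every member a ligase, since the RING finger is lacking in Trim44 and Trim66.

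The table gives each gene's mean normalized count over all libraries, its log2 fold change of CreER/flox over CreER/+, the SE of that change and an adjusted p-value. Values per library were not used here, so levels of single samples and their overlap between groups cannot be given. The name of the table puts flox before the other genotype, and the sign was read that way. Tert itself stood at a log2 fold change of 0.29 (SE 0.26, DESeq2 adjusted p 0.595) in the authors' deposited table, which checks neither the labels nor the sign, since no label names the exons that Cre removes. Of the markers of undifferentiated spermatogonia listed for the check of cell identity, 11 of 11 had a row, with a median mean count of 2353 in the authors' deposited table. Leukocyte markers had a row for 2 of 8, with mean counts of 13.03 and 18.7 in the authors' deposited table. Markers of spermatids, which the sort was not meant to hold, had a row for 19 of 19, with a median mean count of 269 and a highest of 2304 in the authors' deposited table. The protamine gene Prm1, which packs sperm DNA, had a mean count of 1260.

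Of 69 Trim genes in RefSeq, 24 have no row and were not analysed here. The lowest mean count of any gene in the table was 10.4. The 45 members spanned mean counts of 10.6 to 3960 in the authors' deposited table, with a median of 158 beside 192 over all genes. On the scale of counts per kb of transcript, which allows genes of different length to be compared, Trim28 ranked first with 1075. Trim28, also known as KAP1, is the co-repressor that KRAB zinc finger proteins bring to DNA. It was followed by Trim37 with 560 counts per kb, Trim24 with 502 and Trim71 with 424. Trim37 limits centriole duplication, Trim24 is a chromatin reader related to Trim28, and Trim71 is an RNA-binding repressor that the let-7 microRNAs target. Trim28, Trim37, Trim24 and Trim71 lay above the 90th percentile of all genes. At the other end stood Trim67, a member known from the nervous system, with 1.32 counts per kb.

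Promoters of 4 members are shown, because they differ in CpG content, which tends to be high in promoters of broadly used genes and low in many tissue-restricted ones. They were chosen after the values were seen. Trim80 is the called member with an entry in the RefSeq promoter table, Trim66 is a testis-expressed relative of Trim28, and Trim28 and Trim37 are the members of highest count per kb. Each runs from 250 bases before to 50 bases after an annotated start in GRCm38.p6, with CpG dinucleotides in capitals. That of Trim66 surrounds a start inside the gene, whose outer end is at 109516759, and no window at that end was listed. The windows are chr11:115440295-115440594, plus strand for Trim80, chr7:109508085-109508384, minus strand for Trim66, chr7:13023902-13024201, plus strand for Trim28 and chr11:87126825-87127124, plus strand for Trim37.
Trim80: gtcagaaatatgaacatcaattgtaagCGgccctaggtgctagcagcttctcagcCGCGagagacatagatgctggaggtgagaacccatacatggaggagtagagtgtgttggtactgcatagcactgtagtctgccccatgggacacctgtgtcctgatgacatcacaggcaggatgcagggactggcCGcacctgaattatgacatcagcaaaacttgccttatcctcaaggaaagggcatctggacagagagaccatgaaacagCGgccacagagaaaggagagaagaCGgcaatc
Trim66: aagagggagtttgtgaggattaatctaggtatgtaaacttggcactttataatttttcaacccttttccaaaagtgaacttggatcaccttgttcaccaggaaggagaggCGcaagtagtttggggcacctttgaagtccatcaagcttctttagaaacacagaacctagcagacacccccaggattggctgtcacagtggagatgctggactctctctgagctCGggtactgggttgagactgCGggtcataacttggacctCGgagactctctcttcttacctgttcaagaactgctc
Trim28: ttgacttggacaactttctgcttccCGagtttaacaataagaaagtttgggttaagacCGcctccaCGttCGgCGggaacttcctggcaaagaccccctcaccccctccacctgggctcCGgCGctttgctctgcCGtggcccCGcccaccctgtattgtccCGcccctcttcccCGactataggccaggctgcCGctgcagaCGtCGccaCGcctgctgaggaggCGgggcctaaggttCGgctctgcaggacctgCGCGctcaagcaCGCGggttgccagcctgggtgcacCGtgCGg
Trim37: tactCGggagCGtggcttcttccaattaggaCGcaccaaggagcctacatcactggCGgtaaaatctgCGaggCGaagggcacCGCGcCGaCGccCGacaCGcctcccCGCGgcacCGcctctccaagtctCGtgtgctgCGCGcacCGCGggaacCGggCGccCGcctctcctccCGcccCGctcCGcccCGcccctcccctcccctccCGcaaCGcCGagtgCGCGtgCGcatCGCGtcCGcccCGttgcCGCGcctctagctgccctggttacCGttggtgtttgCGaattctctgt
Capitals are few in the first pair and dense in the second. The windows hold 6 CpGs for Trim80, 4 for Trim66, 23 for Trim28 and 41 for Trim37. Relative to the number that their C and G content would give, the CpG ratios were 0.31, 0.24, 0.76 and 1.18 in that order.

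Across the family, 36 members have an entry, 43 windows in all, and the window of highest CpG ratio stood for each gene. The median CpG ratio was 0.308 for the 5 members with an entry and a log2 fold change below -0.5, and 0.666 for the other 31. Those 5 were Trim42, Trim80, Trim69, Trim66 and Trim67, of which only Trim80 was called. Trim11, Trim43c and the called Trim17 and Trim36 also lay below -0.5 but have no entry. The median ratio was 0.384 over the 32851 windows of the RefSeq table. Those windows were counted singly, whereas each member stood at its highest window. The other window of Trim69 had a ratio of 0.32. A ratio below that of the whole table was found for 3 of the 5 and for 8 of the 31, so low CpG content was also found in members that were not lower, such as Trim21 (0.146) and Trim38 (0.116). On either strand, TGACG, the half-site of CREB family factors, was found in 10 of the 43 member windows, or 23.3%, beside 20.8% of all windows. The GC box GGGCGG was in 22, or 51.2%, beside 35.7%, and the TATA box TATAAA was in 5, or 11.6%, beside 13.6%. Neither TGACG nor GGGCGG was in any window of 4 of the 5 members below -0.5, and both were in that of Trim67. Of the 31 other members, 9 had neither, Trim34a and Trim63 among them. TGACG and GGGCGG each contain a CpG, so their counts are not independent of the CpG ratios. TGACGTCA, which contains TGACG, was in 2 member windows, those of Trim26 and Trim52, beside 1.79% of all windows. The MYB motif AACNGTT was in none of the member windows and in 4.45% of all windows.

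The comparison of genotypes asked which transcripts changed when Tert was acutely deleted. Trim17, Trim36 and Trim80 fell in the flox samples, and no Trim gene passed the test on the higher side. The whole table held 796 called genes. By direction, the background was 3.42% of genes called lower (508) and 1.94% called higher (288), so 3 lower and 0 higher members of 45 lie near the background. At an unadjusted DESeq2 p under 0.05 there were 8 lower and 4 higher members in the authors' deposited table, 12 of 45, where 19.7% of all genes passed that mark. The median log2 fold change of the members was 0.018, beside 0.00071 over all genes, and 24 members were above 0 and 21 below. The 3 calls rest on the normal distribution of the DESeq2 statistic. With its SD taken from the central statistics of the table, the adjusted p was 0.0866 for Trim17, 0.507 for Trim36 and 0.649 for Trim80, and none was called. In bulk samples such as these, fewer cells of a type and less RNA per cell cannot be told apart.

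The members spread more widely than their median shows. Their log2 fold changes ran from -1.91 for Trim42 to 1.148 for Trim38 in the authors' deposited table, with an SD of 0.58 beside 0.43 over all genes. Of the members, 9 of 45 lay below -0.5, beside 11.04% of all genes. On the other side, 3 of 45 lay above 0.5, namely Trim12a, Trim21 and Trim38, beside 4.39% of all genes. The median SE was 0.225 for the members and 0.172 over all genes. Trim42 and Trim38 had mean counts of 10.6 and 11.5, with SEs of 0.85 and 0.64. No test of this spread was made, and the part of imprecise estimates in it was not tested.

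**Figure D1:**
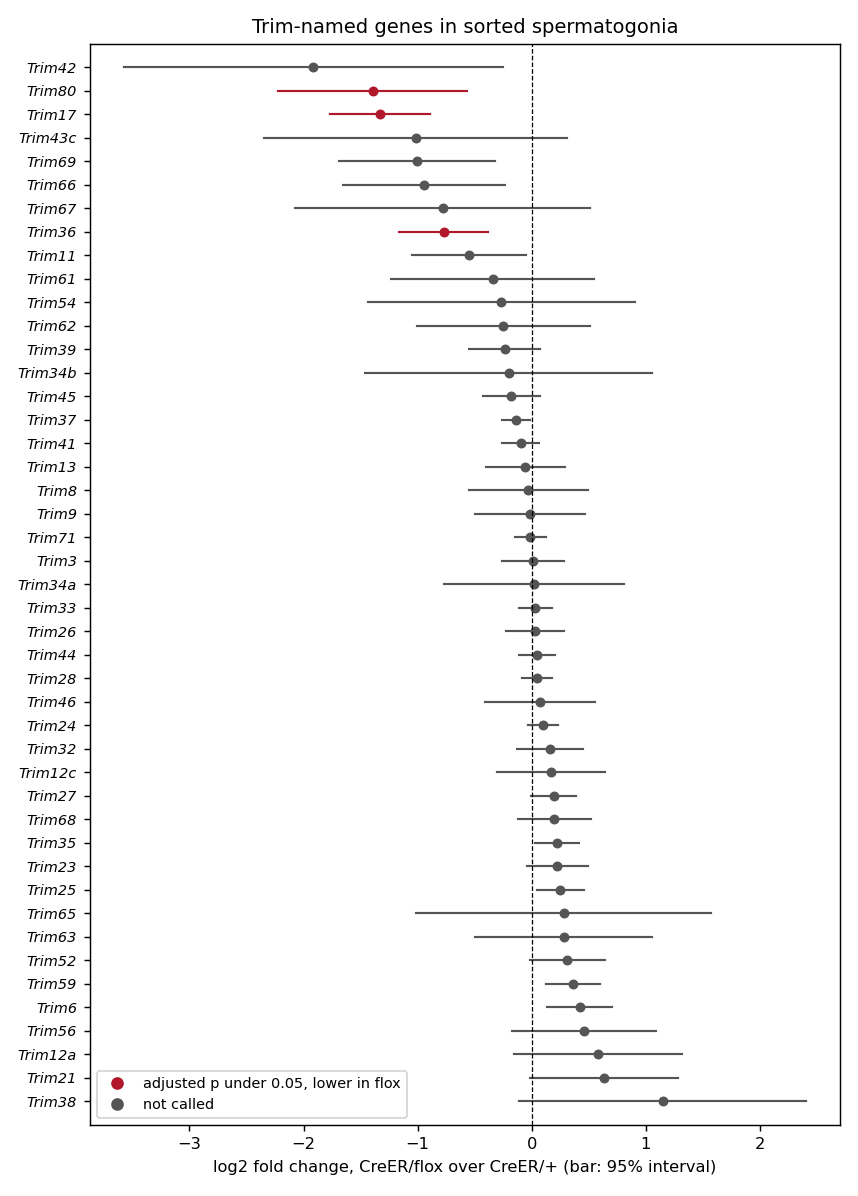
Log2 fold change of CreER/flox over CreER/+ for each of the 45 Trim genes (points) with its 95% interval (bars), ordered from lowest to highest. Trim80, Trim17 and Trim36, in red, were called lower, and the intervals are narrow around 0 for abundant members such as Trim71 and Trim28.

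Trim17 gave the strongest result of the family. It was first described as a RING finger gene of the testis, and in neurons it promotes the degradation of the survival protein Mcl1. In the authors' deposited table it stood at a log2 fold change of -1.33 (SE 0.23, DESeq2 adjusted p 6.42e-06) at a mean count of 158, which is 2.51-fold lower. With 4 samples in each group, that mean and fold imply about 90.0 normalized counts in CreER/flox and 226 in CreER/+, without an error for either. The 95% interval of its log2 fold change was -1.77 to -0.89.

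Trim17 shares bases with a histone gene. Trim17 (Entrez 56631) lies on chromosome 11 from 58954671 to 58973075 in GRCm38, on the plus strand, and exons annotated near its start overlap the histone gene H2aw, named Hist3h2a in GENCODE, on the same strand. That overlap covers 19.0% of the annotated exonic bases of Trim17, and 18.3% of the 50-base words of its longest transcript also occur in the histone transcript. H2aw had a mean count of 2703 and a log2 fold change of 0.27 (SE 0.24, DESeq2 adjusted p 0.586) in the authors' deposited table, opposite in sign to Trim17. A further histone gene, H3f4, lies within the span of Trim17 and stood at 0.44 (SE 0.26, DESeq2 adjusted p 0.342) in the authors' deposited table. On the opposite strand, the processed transcript 2310058D17Rik and the microRNA Gm44313 overlap 8.75% of the exonic bases of Trim17. How reads from the shared bases were assigned is not stated.

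The next gene on chromosome 11 is Trim11, which starts 651 bases beyond the end of Trim17 in RefSeq. Trim11 is another PRY-SPRY member, and its log2 fold change of -0.55 (SE 0.25, DESeq2 adjusted p 0.193) in the authors' deposited table did not pass the test. Its unadjusted p was 0.0302 at a mean count of 114. Both neighbours lay below 0, and whether their changes differ was not tested.

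Trim36 was the most abundant of the called members. Its protein, haprin, was described in mouse as a protein of haploid germ cells found in the acrosome, the vesicle that a sperm uses to enter the egg. Trim36 (chromosome 18, 46165300 to 46212607) had a mean count of 340 and a log2 fold change of -0.77 (SE 0.20, DESeq2 adjusted p 0.00738), per the authors' deposited table. The implied levels were about 252 normalized counts in CreER/flox and 429 in CreER/+. Its SE was 1.56 times the typical SE at its mean count. No annotated exon of another gene overlaps it, and 1.60% of its 50-base words occur in other genes. Its nearest protein-coding neighbour above, Pggt1b, stood at 0.11 (DESeq2 adjusted p 0.678) in the authors' deposited table.

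Trim80 completed the called members at a low count. Trim80 (chromosome 11, 115440545 to 115448268) had a mean count of 46.0 and a log2 fold change of -1.40 (SE 0.42, DESeq2 adjusted p 0.0272), per the authors' deposited table. The implied levels were about 25.3 normalized counts in CreER/flox and 66.7 in CreER/+. An annotated microRNA, Mir3968, overlaps 5.17% of its exonic bases on the opposite strand. Its upstream neighbour Kctd2 stood at -0.34 (SE 0.14, DESeq2 adjusted p 0.115) in the authors' deposited table and was not called. Beyond Kctd2 lies Atp5h, which rose (0.32, SE 0.10, DESeq2 adjusted p 0.0342) in the authors' deposited table.

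Spermatids are the haploid cells after meiosis, and 8 of their 19 listed markers were called lower, beside 3.42% of all genes. All 19 had a row and a log2 fold change below 0, with a median of -1.05. Their range was -1.47 to -0.15, and the median SE was 1.63 times the typical SE at that mean count. Of the 45 Trim genes, 14 lie within that range, Trim17, Trim36 and Trim80 among them, which is 31.1% beside 27.98% of all genes. The upper end of the range was set by Spaca1 alone (DESeq2 adjusted p 0.755), and the next marker, Pgk2, stood at -0.65. Members such as Trim11 (-0.55) are therefore counted only because of Spaca1, and both shares depend on that marker. Odf1, of the sperm tail, stood at -1.14 (SE 0.22, DESeq2 adjusted p 0.000125), per the authors' deposited table. The part of spermatid RNA in the Trim values was not tested, and levels of these markers in each group's samples were not used here.

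The 6 uncalled members of smallest adjusted p were split evenly by sign. Closest to the threshold was Trim59, a membrane-anchored member, which stood at 0.36 (SE 0.12, DESeq2 adjusted p 0.0521) at a mean count of 550 in the authors' deposited table. Trim6, which builds unanchored ubiquitin chains in interferon signalling, stood at 0.42 (SE 0.14, DESeq2 adjusted p 0.0592) at a mean count of 811 in the authors' deposited table. Trim59 passed when genes with mean counts under 100 (DESeq2 p adjusted to 0.0473) or under 50 (0.0460) were left out of the adjustment, and Trim6 passed in neither. With a trend in length, GC content and mean count taken out, Trim59 stood at 0.20 (adjusted p 0.458) and Trim6 at 0.33 (adjusted p 0.227). Trim25, which ubiquitinates the RNA sensor RIG-I, followed at 0.25 (SE 0.10, DESeq2 adjusted p 0.134) in the authors' deposited table.

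On the lower side of this group were Trim69, Trim66 and Trim42, the first pair known to be expressed in testis. Trim69, a PRY-SPRY member that in human cells associates with microtubules, stood at -1.004 (SE 0.35, DESeq2 adjusted p 0.0635) in the authors' deposited table. Trim66, an HP1-binding protein described in mouse spermatids, stood at -0.94 (SE 0.36, DESeq2 adjusted p 0.0998) in the authors' deposited table. With the same trend taken out, Trim69 stood at -0.97 (adjusted p 0.113) and Trim66 at -0.68 (adjusted p 0.368). Trim42 had the lowest fold of the family, -1.91 (SE 0.85, DESeq2 adjusted p 0.169), at a mean count of 10.6, the smallest among the members, in the authors' deposited table. With these SEs none of Trim69, Trim66 and Trim42 could have been called at an estimated change under 2.07-fold.

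What the comparison could call differed strongly between members. The lowest absolute Wald statistic among called genes was 3.00, so the SE of a member sets the smallest estimated fold that would be called. That fold was 1.14 for Trim37 and 5.85 for Trim42, with a median of 1.60 over the family. An estimated change of 1.5-fold in either direction would have been called for 21 of 45 members. For 15 members the estimate would have needed to exceed 2-fold. How often a true change of a given size would be called was not computed. The 95% interval of 21 members lay entirely within 1.5-fold of no change. For Trim21, the cytosolic antibody receptor, the SE was 2.61 times the typical SE at that mean count, the highest ratio in the family. In the authors' deposited table Trim21 stood at 0.63 (SE 0.33, DESeq2 adjusted p 0.267) at a mean count of 349 and was not called. The others with a ratio above 1.5 were Trim36, Trim12a and Trim6.

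**Figure D2:**
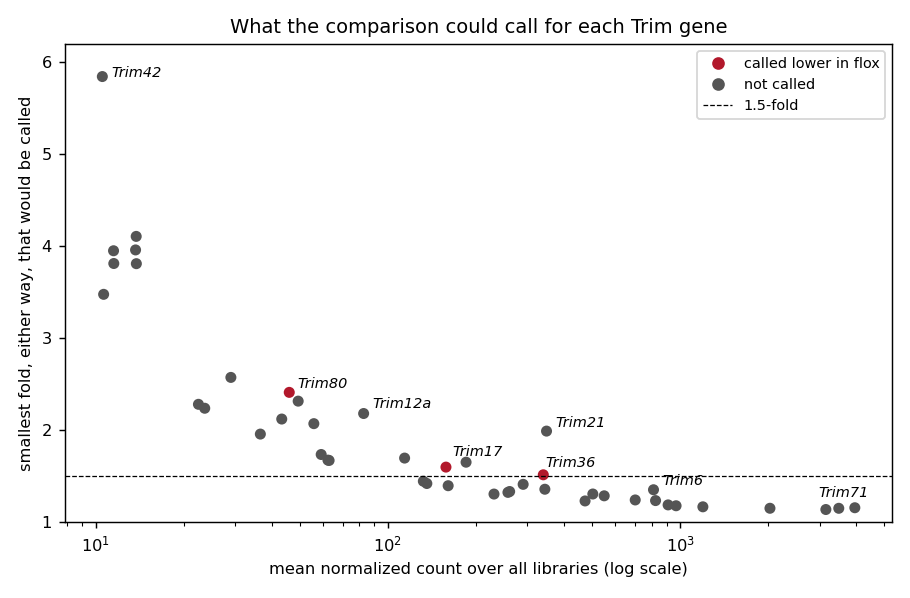
Smallest estimated fold change in either direction that would be called for each Trim gene (vertical axis) against its mean normalized count (horizontal axis, log scale). The value falls from 5.85 for Trim42 to 1.14 for Trim37, with Trim21 and Trim12a above other members of like count.

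Members were also grouped by mean count. For the 14 members with a mean count up to 50 the median log2 fold change was -0.26, beside -0.16 over all genes in that range. For the 11 members from 50 to 200 it was -0.029, beside -0.031. The 15 members from 200 to 1000 had a median of 0.19, beside 0.031 over all genes, and 3 of them were below 0. The 5 members above 1000 had a median of 0.030, beside 0.050. For members and for all genes alike, the median was below 0 in the lower pair of ranges and above 0 in the upper pair. Each of the lower 3 ranges held 1 called member, where 3.06%, 6.82% and 4.90% of all genes were called from the lowest range up. The highest range held none, where 7.51% were called.

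**Figure D3:**
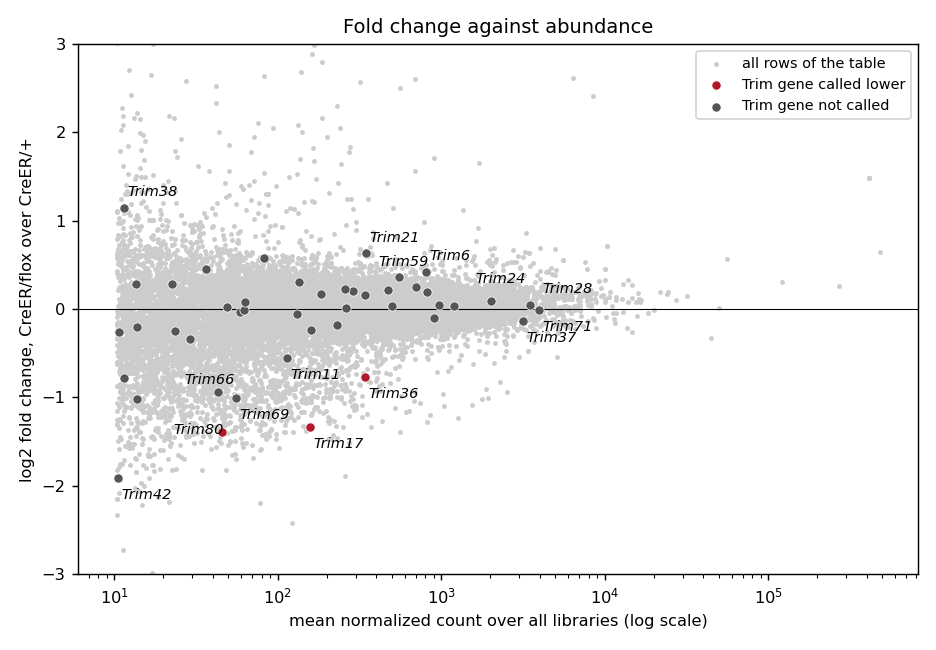
Log2 fold change of CreER/flox over CreER/+ (vertical axis) against mean normalized count over all libraries (horizontal axis, log scale) for all genes (grey) and Trim genes (dark grey, red where called lower). Members with mean counts above 1000 stand within 0.14 of 0, whereas those below 50 run from -1.91 to 1.148; 10 genes of the table lie beyond the vertical axis.

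Ordered by the domain that follows the tripartite motif, the PRY-SPRY class was the largest. It held 22 members with a median log2 fold change of 0.024, 12 above 0 and 10 below, and Trim17 and Trim80 were its called members. Its members of highest count per kb were Trim41 (265), Trim6 (212) and Trim27 (191). Trim27 partners with the deubiquitinase Usp7, and it stood at 0.19 (SE 0.10, DESeq2 adjusted p 0.267) in the authors' deposited table. Trim41 stood at -0.10 (SE 0.08) in the authors' deposited table. Trim38, a regulator of innate immune signalling, had the highest fold of the family in the authors' deposited table, but with a mean count of 11.5 and an SE of 0.64 it was not called (DESeq2 adjusted p 0.312). Trim65, which ubiquitinates the RNA sensor MDA5, stood at 0.28 (SE 0.66) in the authors' deposited table. The uncalled Trim26, Trim35, Trim39, Trim61, Trim62 and Trim68 lay between -0.34 for Trim61 and 0.22 for Trim35 in the authors' deposited table.

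The class that binds microtubules through a COS box, followed by a fibronectin repeat and a SPRY domain, had 4 members with a row. Their median was -0.39, with Trim36 called and Trim67 at -0.78 (SE 0.66) in the authors' deposited table. Trim9 and Trim46, known from neurons, stood at -0.014 and 0.075 in the authors' deposited table. By counts per kb, Trim36 led this class with 74.9, followed by Trim46 with 19.4 and Trim9 with 12.98. The members with a COS box but no SPRY domain were Trim42, Trim54 and Trim63, at 4.28, 7.43 and 11.9 counts per kb. Trim54 and Trim63 are muscle ligases, and in the authors' deposited table they stood at -0.26 (SE 0.60) and 0.28 (SE 0.40).

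Among the chromatin members, which carry a PHD finger and a bromodomain, the abundant ones stood close to 0. Trim28 stood at 0.050 (SE 0.067) at a mean count of 3490 in the authors' deposited table. Per the authors' deposited table, Trim24 stood at 0.096 (SE 0.067) and Trim33, a regulator of SMAD signalling, at 0.030 (SE 0.074). The 95% interval for Trim28 was -0.081 to 0.18. Trim66 was the exception in this class, with 4.69 counts per kb beside 1075 for Trim28.

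The NHL class likewise stood close to 0. Trim71 had the highest mean count of the family, 3960, and a log2 fold change of -0.013 (SE 0.070) in the authors' deposited table. Per the authors' deposited table, Trim3 stood at 0.015 (SE 0.14) and Trim32, mutated in a limb-girdle muscular dystrophy, at 0.16 (SE 0.15). Counts per kb were 424 for Trim71, 108 for Trim32 and 86.6 for Trim3.

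The remaining classes were small. Trim37, the member with a MATH domain, stood at -0.14 (SE 0.062, DESeq2 adjusted p 0.178) in the authors' deposited table and was not called. It was called lower (-0.20, adjusted p 0.0450) after a trend in length, GC content and mean count had been taken out of the fold changes. In the authors' deposited table, Trim23, which carries an ARF GTPase domain, stood at 0.23 (SE 0.13) and the filamin-domain member Trim45 at -0.18 (SE 0.13). Trim13, anchored in the endoplasmic reticulum membrane, stood at -0.055 (SE 0.18) in the authors' deposited table. The 4 members with no further domain had a median of 0.18. Of these, Trim44 had 173 counts per kb, Trim52 had 44.2 and Trim8 had 16.5. In the authors' deposited table Trim56, which acts in the sensing of cytosolic DNA, stood highest of them at 0.46 (SE 0.32) and Trim8 lowest at -0.029 (SE 0.26).

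**Figure D4:**
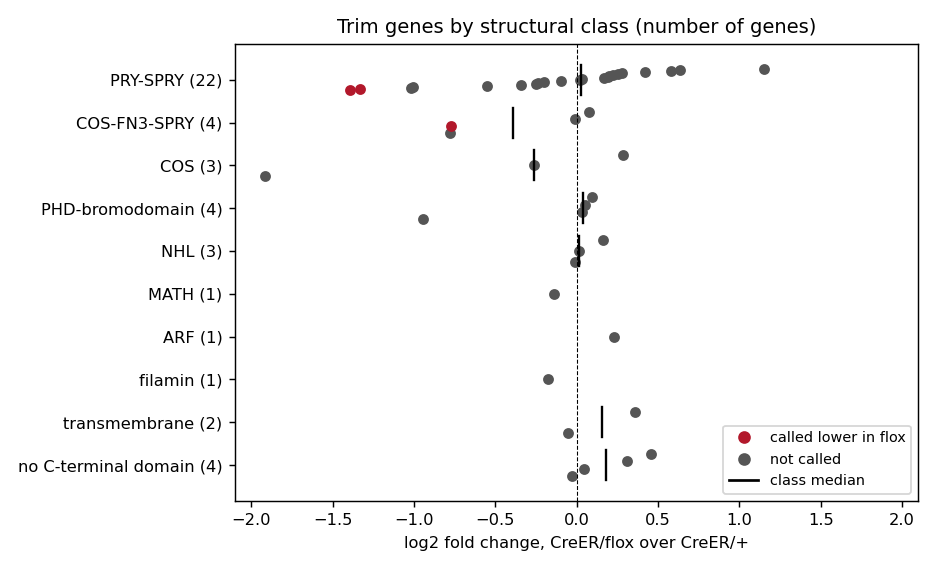
Log2 fold change of CreER/flox over CreER/+ for the Trim genes (points) in each structural class, with the number of genes in brackets and a line at the class median. The called members lie in the PRY-SPRY and COS-FN3-SPRY classes; the small vertical offsets only separate the points.

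Several members sit side by side in the genome. On chromosome 7, Trim6, Trim34a, Trim12a, Trim34b and Trim12c lie between 104218795 and 104353358, in the mouse cluster related to the retroviral restriction factor TRIM5 of primates. Their log2 fold changes were 0.42, 0.018, 0.58, -0.20 and 0.17 in that order in the authors' deposited table, and none was called. Near copies limit these values. Of the 50-base words of its longest transcript, Trim34b shared 59.0% with Trim34a, and Trim12c shared 32.2% with other genes. Trim43c shared 42.3% of its words with other genes, mostly with Trim43b. Over the family, 6 members shared more than 10% of their words with another gene and 27 shared none. Exons of genes on the opposite strand covered more than 10% of the exonic bases of Trim43c, Trim54, Trim34a and Trim42, and reads of these genes cannot be told apart if strand was not used in counting.

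Lists of other genes in the pathway were read beside the family. The TRIM proteins of other names had 4 genes with a row and none called, and the midline gene Mid1 stood furthest from 0 at -0.68 (SE 0.40, DESeq2 adjusted p 0.345), per the authors' deposited table. The ubiquitin-activating enzyme Uba6 rose (0.39, SE 0.09, DESeq2 adjusted p 0.00174) in the authors' deposited table, and Uba1 stood at 0.022. Of 32 ubiquitin-conjugating enzymes, 2 rose and none fell, beside 1.94% and 3.42% of all genes, with a list median of 0.069. Those that rose in the authors' deposited table were Ube2v2, a partner of Ube2n in building K63-linked chains (0.40, SE 0.11, DESeq2 adjusted p 0.0194), and Ube2g1 (0.27, SE 0.09, DESeq2 adjusted p 0.0453).

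Partners of particular members were mostly uncalled. Of 15 genes that work with Trim28 in repression, 1 fell and none rose, beside 3.42% and 1.94% of all genes. In the authors' deposited table the fall was in the nucleosome remodeller Chd3 (-0.42, SE 0.08, DESeq2 adjusted p 9.27e-05). The histone methyltransferase Setdb1 stood at 0.011 (SE 0.073) in that table. Of the 15 genes, 10 lay above 0 and 5 below. None of 15 other partners and substrates was called, with a list median of 0.047. In the authors' deposited table Mcl1 and the kinetochore protein Zwint, described as Trim17 substrates in neurons and in human cells, stood at 0.14 (SE 0.081, DESeq2 adjusted p 0.315) and 0.16 (SE 0.071, DESeq2 adjusted p 0.161). None of 11 genes of innate RNA and DNA sensing was called (median 0.020), nor any of 12 interferon-stimulated genes (median 0.12). An unadjusted DESeq2 p under 0.05 was reached by 19.7% of all genes. Among the 15 partners and substrates, Zwint and the centriole kinase Plk4 passed that mark. No gene of the sensing or interferon-stimulated lists did. Among the genes that work with Trim28, Chd3 passed that mark on the lower side, and Morc3, Cbx1 and Hdac2 on the higher side.

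Apart from the spermatid markers, the marker lists had medians nearer 0, with a single Leydig gene and a pair of leukocyte genes too few to give a useful median. The medians were -0.016 for spermatocytes (2 of 8 called lower), -0.085 for undifferentiated spermatogonia (none of 11 called) and 0.059 for differentiating spermatogonia (none of 5 called). The spermatocyte markers called lower were Piwil1 and Sycp2. Of Sertoli cell markers, 1 of 5 was called, Trf, which was higher (0.62, SE 0.15, DESeq2 adjusted p 0.00255) in the authors' deposited table. Over all genes, 3.42% were called lower and 1.94% higher. Endothelial markers had a median of 0.0048 over 5 genes, with none called. Neither leukocyte marker with a row was called, and the Leydig cell list had 1 uncalled gene.

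**Figure D5:**
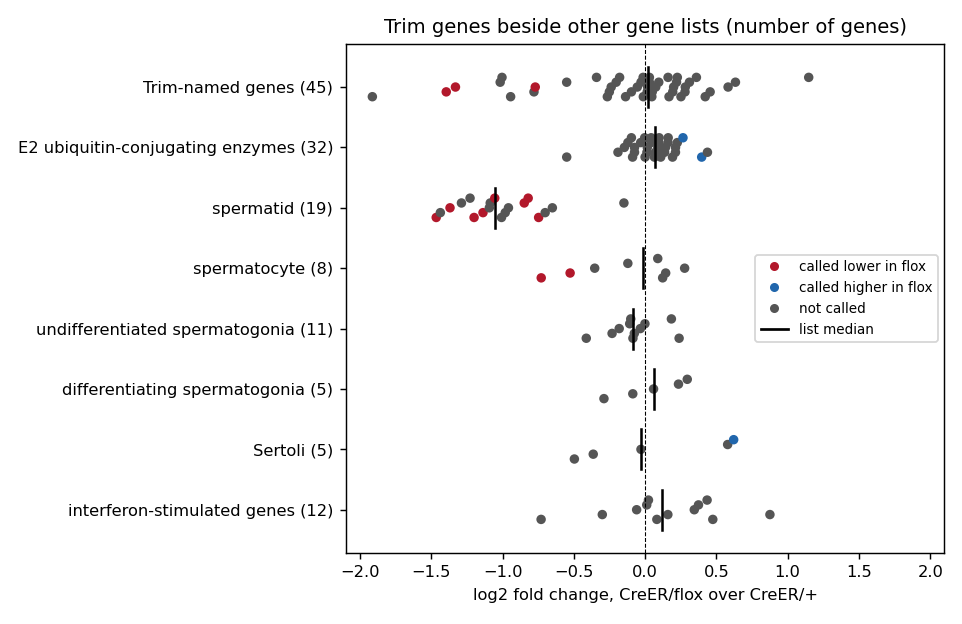
Log2 fold change of CreER/flox over CreER/+ for the Trim genes and other gene lists (points, with a line at each median and the number of genes in brackets). The spermatid markers all lie below 0 with a median of -1.05, whereas the Trim genes have a median of 0.018 and run from -1.91 to 1.148.

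The number of members called depended on the threshold and on the distribution assumed for the DESeq2 statistic. At an adjusted p under 0.1 there were 7 called members, 2 higher (Trim59 and Trim6) and 5 lower (Trim69 and Trim66 in addition), where 9.02% of all genes were called. At an adjusted p under 0.01, Trim17 and Trim36 were called, beside 1.78% of all genes. With a t distribution of 6 degrees of freedom no member and 0.0% of genes passed (adjusted p 0.439 for Trim17, Trim36 and Trim80), although 7 members and 1652 genes had an unadjusted p under 0.05. The SD from the central statistics was 1.45, set so that a normal distribution matched the quartiles of all genes. The DESeq2 test assumes 1 for unchanged genes, whereas changed genes also enter these quartiles. With the SD of 1.45, 5 genes (0.0337%) and no member passed, Trim17 had an adjusted p of 0.0866, and 6 members had an unadjusted p under 0.05. Adjusted over genes with mean counts from 100 up, or from 50 up, 1 member was called higher and 2 lower in each case, beside 6.47% and 6.73% of genes called. After removal of the trend, Trim80 had an adjusted p of 0.0737, and Trim17, Trim36 and Trim37 were called, beside 2.84% of genes. Without genes of unusually high SE, which include Trim36, the called members were Trim17 and Trim80, beside 4.25% of genes.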

How the data were processed

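RNA sequencing libraries came from 8 samples, 4 of each genotype, and only the table of the authors' genotype comparison was analysed, so values per library were not used here. Per the submitters' processing notes, the tools were DESeq2, Bowtie, TopHat2 2.0.4, Trim Galore and Bowtie2 2.0.0-6, and the genome build was GRCm38 (mm10). The counting program, its strand setting and the annotation are not stated by the labels. In the file deposited by the authors, each gene has a normalized count signal, the mean over libraries. The fold changes and their standard errors (SE) deposited by the authors are log2 values. A Wald statistic was deposited as the score of each gene, and the p-values deposited by the authors were adjusted by the Benjamini-Hochberg method over all rows.

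No model of counts was fitted here. All 45 members matched a RefSeq gene of GRCm38.p6 by ID. Counts per kb used the longest GENCODE M21 transcript. The 95% intervals are the log2 fold change plus and minus a normal quantile of its SE. The smallest estimated fold that would be called has as its log2 the lowest absolute Wald statistic among called genes times the member's SE. Words of 50 bases shared with transcripts of other genes and exons overlapped by other genes were counted in GENCODE M21. Promoters came from RefSeq, GRCm38.p6. RING and B-box patterns were not searched because no protein sequences were used here. The members and gene lists were chosen with earlier results of these data known. Fold, SE and adjusted p are given for called members and the 6 members of smallest adjusted p that were not called. The same was added for Trim11, Trim21, Trim27, Trim37 and Trim38. Up to 3 members of highest count per kb in each class are named, mostly without an adjusted p. Alternatives were other thresholds, adjustment over other gene sets, other reference distributions, centring, trend removal and other member definitions. The steps were tested on simulated data. Computation used scipy 1.17.1, numpy 2.4.6 and pandas 2.3.3 in Python 3.11.15, with matplotlib 3.10.9 for plots.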

Additional observations from a re-analysis of the deposited data

How the results depend on the processing

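Of 15 alternatives, 7 left all of Trim17, Trim36 and Trim80 called. An adjusted p under 0.1 gave 7 called members, 2 higher and 5 lower. Adjusting over genes with mean counts from 100 up, or from 50 up, gave 1 higher member in each case, Trim59, and left Trim80 untested. The t distribution with 6 degrees of freedom gave 0 called members and 0 lower ones, as did a normal distribution with its SD taken from the central statistics. Of all genes, 0.0% were called with the former and 0.0337% with the latter, so neither sets the Trim genes apart. The reference distribution was the only choice run that removed the call of Trim17, whose adjusted p ran from 4.07e-06 to 0.439. That of Trim36 ran from 0.00502 to 0.507 and that of Trim80 from 0.0270 to 0.649. No direction of these genes reversed in any alternative that tested them. Only centring and trend removal changed the fold changes, so in the other alternatives the direction was fixed in advance. When members sharing over 10% of their 50-base words with another gene were left out, a choice made after seeing the data, Trim17 was set aside and Trim36 and Trim80 stayed called among 39 members. The median log2 fold change of the family was 0.018 and lay between 0.015 and 0.047 in the 9 settings in which it was recomputed, in some of which the values behind it are the same.

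No paired analysis was possible because values per library were not used here and the comparison table carries no replicate numbers. Leaving out replicates and other scalings of the libraries were not run for the same reason. Depth per library is therefore not known here, and the SE of each gene is the only measure of its precision. An estimated change of 2-fold or less would not be called in 15 members.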
